A study of Mus musculus with 8 samples.

Results

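*Arl2*, a small GTPase gene of the Arf family, was followed here together with 9 genes whose products bind it or work beside it in tubulin folding. The 10 genes (*Arl2*, *Arl3*, *Arl2bp*, *Elmod2*, *Pde6d*, *Tbca*, *Tbcb*, *Tbcc*, *Tbcd* and *Tbce*) were chosen by name, and all 10 were found among the 24746 genes of the count table. RNA was sequenced from FACS-sorted pro-B cells, progenitors in the bone marrow in which the heavy chain locus is recombined. Cells came from 4 dKO mice (miR-15a/bfl/fl Vav-Cre) and from 4 control mice (miR-15a/b+/+ Vav-Cre), all on a C57BL/6 background and 10 to 12 weeks old. In dKO mice both the miR-15a/16-1 and the miR-15b/16-2 cluster are flanked by loxP sites. Vav-Cre, which the controls carry too, is active throughout the hematopoietic system, so the clusters are removed in all blood lineages and not in pro-B cells alone.

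Arl2 cycles between a GDP-bound and a GTP-bound state and is best known from the assembly of tubulin, the αβ heterodimer that microtubules are built from. Newly folded α- and β-tubulin leave the CCT chaperonin and are handed on by the cofactors TBCA to TBCE; Arl2 forms a complex with TBCD and TBCE in this pathway. With its close relative Arl3 it also releases lipid-modified proteins from the carrier PDE6D, and a pool of Arl2 with its partner ARL2BP resides in mitochondria. MicroRNAs of the miR-15 family recognise their targets mainly through the seed, bases 2 to 8, which pairs with complementary letters in the 3′ UTR of an mRNA.

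The mature miRNAs of the deleted clusters are shown first, because their shared seed sets the letters searched in the 10 genes. They are RefSeq sequences of GRCm38.p6, printed 5′ to 3′ with the seed in capitals. *Mir15a* and *Mir16-1* lie on chromosome 14, *Mir15b* and *Mir16-2* on chromosome 3, and the mature miR-16-5p of *Mir16-1* and *Mir16-2* is identical.
mmu-miR-15a-5p: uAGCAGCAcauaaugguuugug
mmu-miR-15b-5p: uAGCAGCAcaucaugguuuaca
mmu-miR-16-5p: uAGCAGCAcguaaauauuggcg

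The letters opposite this seed were looked for on the transcript strand in 3′ UTRs of GENCODE M21 (GRCm38), taking the longest per gene. A match of 8 bases is TGCTGCTA, the matches of 7 bases are TGCTGCT and GCTGCTA, and a match of 6 bases is GCTGCT, each site being counted once under its longest form. *Arl2* had 4 matches of 7 or 8 bases in a 3′ UTR of 284 bases. The 6 bases GCTGCT within them start at bases 99, 102, 121 and 214 of this 3′ UTR. Matches of all genes are named below by the base at which GCTGCT starts. The first and the second start 3 bases apart and overlap. They are printed with flanking bases, and with the matching letters in capitals, because no other of the 10 genes has more than 1 such match; all lie on the minus strand within 1 exon.
*Arl2* match at base 99, chr19:6134556-6134583: accccaccatgaccTGCTGCTgctatta
*Arl2* match at base 102, chr19:6134553-6134580: ccaccatgacctgcTGCTGCTAttactg
*Arl2* match at base 121, chr19:6134534-6134561: ctattactgcccatTGCTGCTcccccgg
*Arl2* match at base 214, chr19:6134441-6134468: tgggagggactaccTGCTGCTgccaggg

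*Arl3* had 1 match of 7 bases in a 3′ UTR of 306 bases, and *Elmod2* had a single match of 6 bases in 3684 bases. The other 7 genes had none of the 4 motifs, in 3′ UTRs of 102 bases (*Tbcb*) to 1307 bases (*Arl2bp*). The sequences of *Arl3* and *Elmod2* are given for comparison with the cluster in *Arl2*.
*Arl3* match at base 140, chr19:46531261-46531288, minus strand: tagaaacactgggtTGCTGCTttctgac
*Elmod2* match at base 606, chr8:83315698-83315725, minus strand: gtggcagtactgatgGCTGCTtcttact

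Short 3′ UTRs seldom held such letters. Among 792 tested genes with a 3′ UTR within 20% of the length of that of *Arl2*, *Arl2* included, 66 genes (8.333%) had at least 1 match of 7 or 8 bases, and *Arl2* was the only 1 with as many as 4. For *Arl3* the share of genes of like length with at least 1 match was 8.293% (69 of 832). Of the 12714 tested genes 11810 had an annotated 3′ UTR and were searched, and 148 of them had 4 or more matches, with a median 3′ UTR of 4384 bases. *Arl2* had the highest log2 fold change of these 148 genes, of which 6 were higher and 1 was lower in dKO cells (over all tested genes, 2.65% were higher and 1.93% lower), and the median log2 fold change of the 148 was 0.0082. The study had listed *Arl2* as a putative target from its rise in these same mice and its sites, so this rank is not independent of that choice. A match of letters is a description and by itself shows neither binding nor its absence. In the paper's 3′ UTR reporter assay, *Arl2* gave the strongest effect, which the authors ascribe to 4 conserved sites for the deleted miRNAs.

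**Figure D1:**
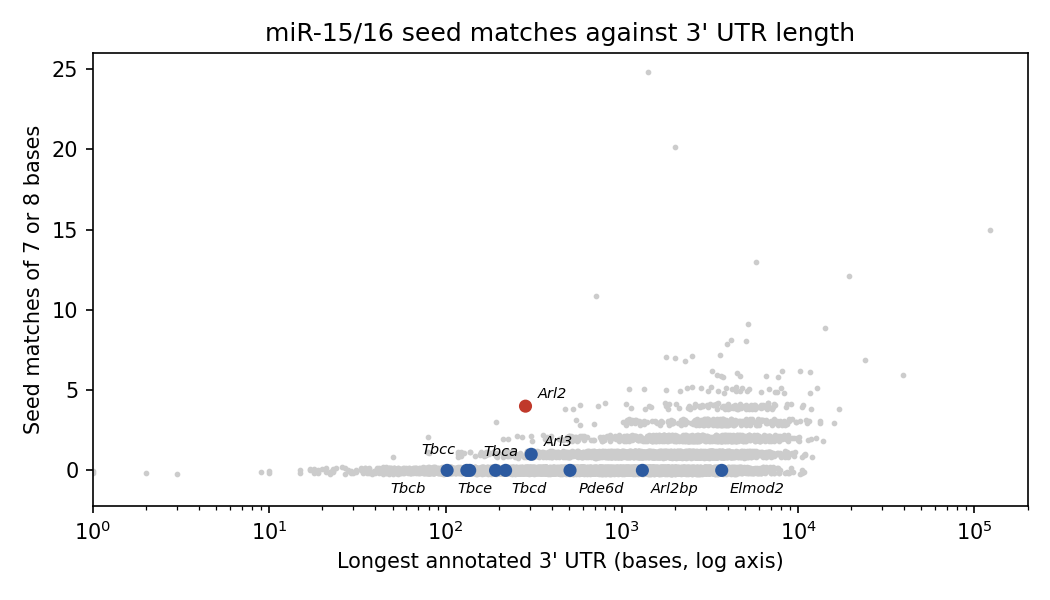
Each grey point is a tested gene, with the length of its longest annotated 3′ UTR on the x axis (bases, log axis) and its number of miR-15/16 seed matches of 7 or 8 bases on the y axis (grey points are spread vertically to show their number). *Arl2* (red) has 4 matches in 284 bases, *Arl3* has 1, and the other 8 genes (blue) have 0.

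The total count per library was 38073065 to 43288133 in dKO mice and 38257907 to 41530921 in control mice, with 1 library per mouse. Of 12714 genes tested, 337 (2.65%) were higher and 245 (1.93%) were lower in dKO cells at an adjusted p under 0.05. All 13 pro-B markers were expressed, at a summed level of 37830 to 41820 CPM in dKO and 35030 to 39910 CPM in control cells, and 2 of them were higher in dKO cells. Markers of other cells were much lower: neutrophil genes summed to 311 to 2235 CPM in dKO and 423 to 2830 CPM in control cells, monocyte and macrophage genes to 325 to 793 CPM in dKO and 450 to 1030 CPM in control cells, T and NK genes to at most 78.7 CPM and erythroid genes to at most 112 CPM, with 4 of 7 erythroid markers at 0. Genes of later B cell stages summed to 13.1 to 26.1 CPM in dKO and 21.5 to 38.8 CPM in control cells, and stromal and endothelial genes to 51.5 to 62.0 CPM in dKO and 42.1 to 66.3 CPM in control cells. In these lists 1 gene each was lower in dKO cells, *Fcer2a* (0.191 to 0.375 CPM in dKO, 0.633 to 3.76 CPM in control cells) and *Cxcl12* (1.10 to 2.36 CPM in dKO, 2.51 to 5.42 CPM in control cells). The part of such cells in the values below was not tested. *Dleu2*, the host gene of the miR-15a/16-1 cluster, was at 177 to 231 CPM in dKO and at 34.4 to 46.0 CPM in control cells. By this gene the libraries separated by their labels. *Smc4*, the host gene of the miR-15b/16-2 cluster, overlapped, at 248 to 400 CPM in dKO and 240 to 314 CPM in control cells. *Xist* was under 1 CPM, with Y-linked genes expressed, in dKO mice 3 and 4 and in control mouse 1, so both groups hold mice of both sexes in unequal numbers.

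All 10 genes passed the filter on low counts, 1 rose in dKO cells, 0 fell and 9 did not pass edgeR's test; 2 of the 10 (*Arl2* and *Pde6d*) had a p under 0.05 before adjustment, as did 20.2% of all tested genes (2566 of 12714). The likelihood ratio test, DESeq2 and limma-voom likewise called 1 gene higher and 0 lower. The share of all tested genes that rose was 2.65%. The median log2 fold change over the 10 genes was 0.01, beside -0.01 over all tested genes, and 5 of the 10 values were above 0.

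*Arl2* was the gene that rose. It was at 137, 140, 125 and 121 CPM (counts scaled to the TMM-normalized library size) in dKO mice 1 to 4, against 42.0, 37.2, 39.7 and 44.5 CPM in control mice 1 to 4. Every dKO library lay far above every control library, and the libraries within a group differed little, with a coefficient of variation of 6.92% in dKO and 7.64% in control cells. The means were 131 ± 9.04 CPM in dKO and 40.9 ± 3.12 CPM in control cells (SD, n = 4 mice each). *Arl2* RNA was thus 3.20-fold higher in dKO cells (95% interval 2.78 to 3.67), a log2 difference of 1.68 with a standard error of 0.09 (edgeR's quasi-likelihood test, adjusted p = 5.458e-06). *Arl2* ranked 3 of 12714 genes by p and 92 by log2 fold change. It kept this call in all 17 alternative fits, with log2 fold changes of 1.63 to 1.72. Read numbers were 4511 to 5911 in dKO and 1517 to 1739 in control libraries, so counting error from read numbers alone was at most 2.57% of a value.

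The difference in *Arl2* was present on both sides of the split by *Xist*. In the libraries with *Xist* the means were 138 CPM in 2 dKO and 40.5 CPM in 3 control mice, a ratio of 3.42. In those without it they were 123 CPM in 2 dKO mice and 42.0 CPM in 1 control mouse, a ratio of 2.93. These ratios were not compared by a test, as 1 side holds a single control mouse.

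*Arl2* occupies chromosome 19 from base 6134389 to 6141137 on the minus strand (GRCm38), with 869 exon bases in the count table. No other gene of the table overlaps it. RefSeq places the non-coding gene LOC115489019 over the same interval (6132464 to 6141914), and it is not known whether the counting used strand, so reads of both cannot be told apart. The nearest tested gene, *Snx15*, was at 21.2 to 28.4 CPM in dKO and 21.5 to 25.6 CPM in control cells (log2 fold change 0.03, adjusted p = 0.929 by edgeR).

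*Arl3*, the closest relative of *Arl2* among the 10 genes, is known for releasing lipid-modified proteins into cilia. It was at 30.3, 31.3, 35.9 and 41.6 CPM in dKO mice 1 to 4, against 36.9, 31.5, 9.12 and 27.1 CPM in control mice 1 to 4. The groups overlapped, and control mouse 3 lay far below all other libraries. The log2 fold change was 0.41 (95% interval -0.30 to 1.12, adjusted p = 0.517 by edgeR). Without control mouse 3 it was 0.13 (adjusted p = 0.7004), and the lowest and highest values on leaving out any 1 mouse were 0.13 and 0.62, the highest without control mouse 1.

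**Figure D2:**
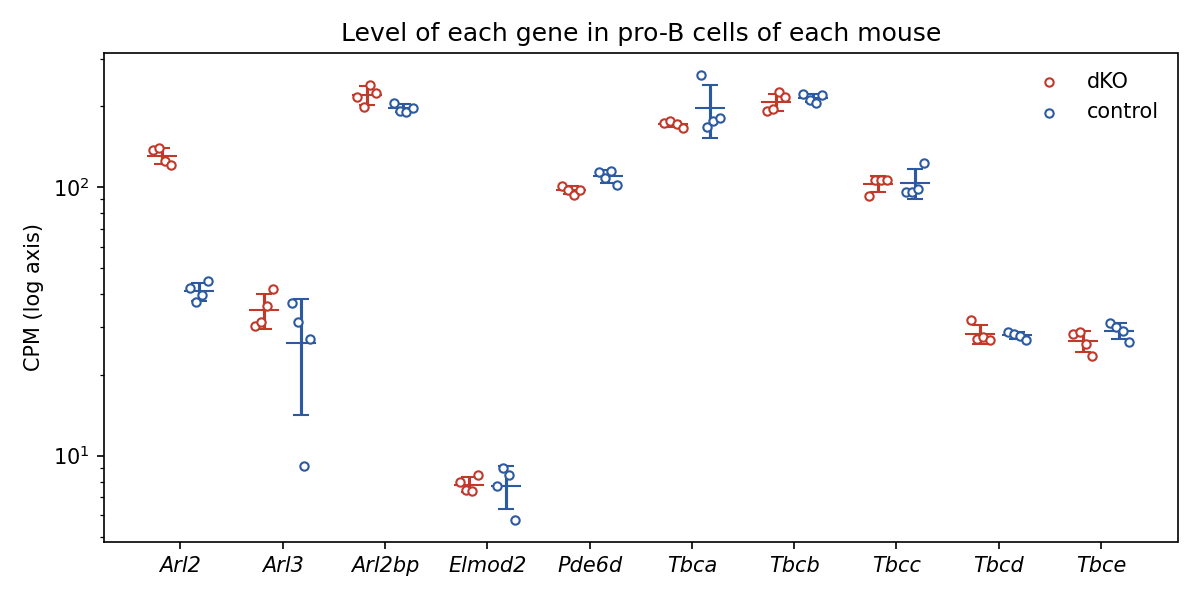
CPM (log axis) of the 10 genes in each library; open points are single mice, in order of their number, horizontal lines are means and bars are SD (n = 4 mice each), with dKO in red on the left and control in blue on the right. *Arl2* is separated, with 121 to 140 CPM in dKO and 37.2 to 44.5 CPM in control cells, and the lowest *Arl3* point, 9.12 CPM, is control mouse 3.

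The low *Arl3* value of control mouse 3 was read from 389 counts, with a counting error of 5.07% from read numbers alone. Few genes behaved like this in that library. Of 9329 genes with a mean of at least 5 CPM, 14 (0.15%) were in control mouse 3 at less than 50% of the lowest of the other 7 libraries. *Arl3* was among them, at 0.336 of that value. Of 27 other such genes that start within 1000 kb of *Arl3*, 1 did the same. This was *Mfsd13a*, whose start lies 216.3 kb from that of *Arl3*. It was at 30.4, 31.8, 42.4 and 43.4 CPM in dKO mice 1 to 4, against 37.5, 42.0, 0.938 and 20.1 CPM in control mice 1 to 4. The other 26 genes of the interval were at 0.772 to 1.74 of the lowest other library in control mouse 3. *Mfsd13a* was chosen after its values were seen, and the source of the low values was not tested.

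**Figure D3:**
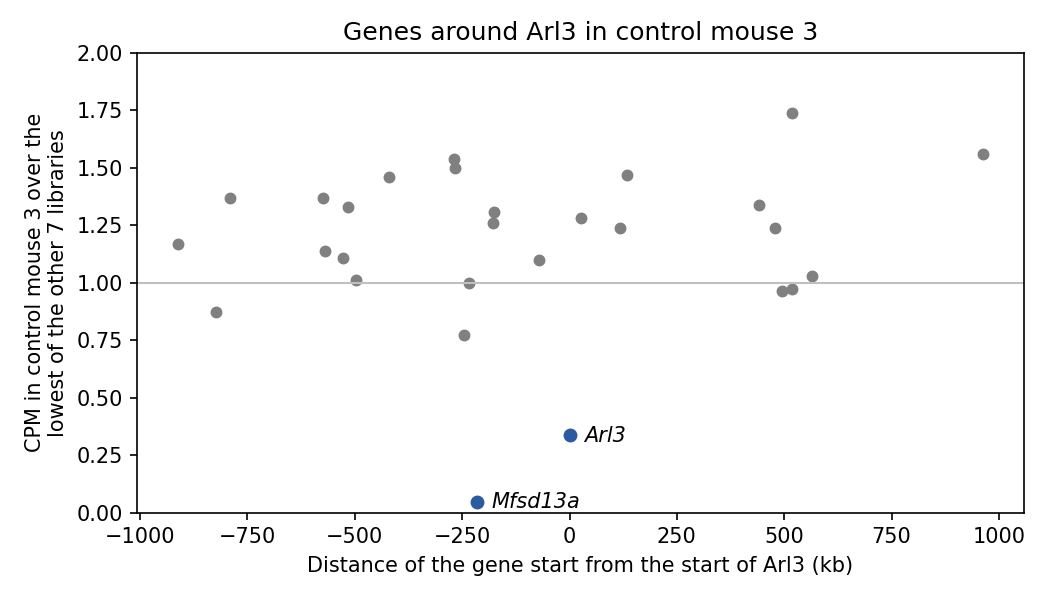
Genes with a mean of at least 5 CPM that start within 1000 kb of *Arl3*, with the distance of their start from that of *Arl3* in kb on the x axis and, on the y axis, the CPM in control mouse 3 divided by the lowest CPM among the other 7 libraries. *Arl3* (0.336) and *Mfsd13a* (0.0468) stand below the other genes, which lie between 0.772 and 1.74.

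The partners that bind or regulate Arl2 showed no change that passed the test. *Arl2bp*, which encodes the effector ARL2BP (also called BART), was at 216, 198, 240 and 224 CPM in dKO mice 1 to 4, against 206, 192, 190 and 197 CPM in control mice 1 to 4. The ranges overlapped through dKO mouse 2 and control mouse 1. Its log2 fold change was 0.16 (95% interval -0.02 to 0.34, adjusted p = 0.301 by edgeR). *Elmod2*, which encodes a GTPase-activating protein for Arl2, was the lowest of the 10 genes, at 7.37 to 8.44 CPM in dKO and 5.78 to 8.996 CPM in control cells. Its log2 fold change was 0.01 (interval -0.36 to 0.39, adjusted p = 0.978), which as a ratio of dKO over control runs from 0.781 to 1.31.

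*Pde6d*, the gene of the carrier that hands prenylated proteins over when Arl2 or Arl3 binds it, was at 101, 97.2, 93.3 and 97.5 CPM in dKO mice 1 to 4, against 113, 107, 114 and 102 CPM in control mice 1 to 4. Every dKO library lay below every control library in CPM, by less than 1 CPM at the closest pair, and 6.21% of all tested genes were separated in this direction. On the scale per exon length used below (TPM) the ranges of *Pde6d* overlapped, at 130 to 147 in dKO and 143 to 170 in control cells. The log2 fold change was -0.17 (95% interval -0.34 to -0.0023) and did not pass the test after adjustment (adjusted p = 0.242 by edgeR), nor in any of the 17 alternatives. *Arl2* was the only 1 of the 10 genes whose dKO libraries all lay above the control libraries, as 7.63% of all tested genes did.

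Of the 5 tubulin cofactor genes 0 passed the test, and in each of them the ranges of the groups overlapped. *Tbcd*, whose product holds β-tubulin and forms a complex with Arl2, was at 31.9, 27.1, 27.6 and 26.9 CPM in dKO mice 1 to 4, against 28.9, 28.4, 27.9 and 26.9 CPM in control mice 1 to 4. Its log2 fold change was 0.02 (95% interval -0.19 to 0.23, adjusted p = 0.944 by edgeR). *Tbce*, whose product holds α-tubulin in the same complex, was at 28.3, 28.9, 26.0 and 23.6 CPM in dKO mice 1 to 4, against 31.2, 30.1, 29.0 and 26.4 CPM in control mice 1 to 4. Here the ranges overlapped and the log2 fold change was -0.13 (interval -0.36 to 0.10, adjusted p = 0.524). *Tbcd* shares 243 exon bases with *B3gntl1* and *Tbce* shares 323 with *B3galnt2*, both on the opposite strand, so some of their reads may be assigned to either gene or dropped; *B3gntl1* and *B3galnt2* had log2 fold changes of 0.21 and 0.14 (adjusted p = 0.703 and 0.536).

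*Tbcc*, the cofactor that triggers GTP hydrolysis on tubulin in the cofactor complex, was at 92.5, 106, 106 and 106 CPM in dKO mice 1 to 4, against 95.5, 95.7, 98.1 and 123 CPM in control mice 1 to 4. Mouse 1 was low among the dKO mice and mouse 4 high among the controls, and the means were alike at 103 ± 6.88 and 103 ± 13.3 CPM (SD, n = 4 mice each). *Tbca*, which binds β-tubulin, was at 165 to 176 CPM in dKO cells. In control mice 1 to 4 it was at 260, 167, 176 and 180 CPM, so that the single high control library set the mean apart. Its log2 fold change was -0.19 (95% interval -0.48 to 0.10, adjusted p = 0.453 by edgeR), and without control mouse 1 it was -0.02. Control mouse 1 was also the only control mouse with *Xist* under 1 CPM. The *Tbca* ratio of dKO over control was 1.00 in the libraries with *Xist* and 0.647 in those without it. A part of sex in this was not tested. *Tbcb*, which binds α-tubulin, was at 192 to 225 CPM in dKO and 206 to 222 CPM in control cells, with a log2 fold change of -0.05 (interval -0.23 to 0.13, adjusted p = 0.762).

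**Figure D4:**
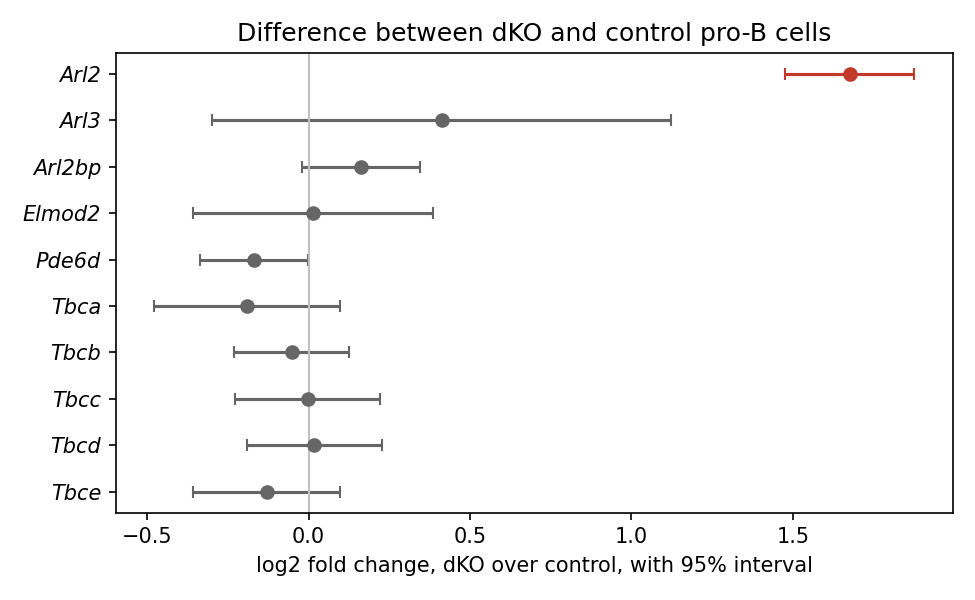
Log2 fold change, dKO over control, of the 10 genes with approximate 95% intervals derived from edgeR's quasi-likelihood test. Red marks an adjusted p under 0.05 and grey the rest. The interval of *Arl2* (1.48 to 1.88) lies apart from those of the other 9 genes, which reach at most 1.12 (*Arl3*).

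Levels were then set against each other per exon length, as TPM, which divides each count by exon length before scaling the library. In dKO cells *Arl2* stood in rank 3 after *Tbca* and *Tbcb*, and in control cells in rank 6. In dKO cells *Arl2* was at 233 ± 21.8 TPM and *Tbcb* above it at 273 ± 14.3 TPM (SD, n = 4 mice each), and *Arl2bp* came next below at 152 ± 9.59 TPM. The highest *Arl2* level, 254 TPM, was below the lowest *Tbcb* level, 260 TPM, and the lowest *Arl2* level, 211 TPM, was above the highest *Arl2bp* level, 163 TPM. In control cells *Arl2* was at 72.7 ± 5.92 TPM, next below *Tbcc* at 86.8 ± 13.7 TPM, whose range (71.2 to 105 TPM) overlapped that of *Arl2* (66.5 to 80.3 TPM), and above *Arl3* at 40.4 ± 17.5 TPM. *Arl2bp* and *Pde6d* did not keep their order: *Arl2bp* was the higher in dKO cells (152 against 138 TPM) and *Pde6d* in control cells (155 against 136 TPM), with overlapping ranges in dKO cells only. *Tbca* had the highest level in both groups (529 ± 26.0 TPM in dKO and 596 ± 77.6 TPM in control cells), and *Tbce*, *Tbcd* and *Elmod2* the lowest, at 22.3, 11.3 and 2.57 TPM in dKO and 24.4, 11.1 and 2.55 TPM in control cells.

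**Figure D5:**
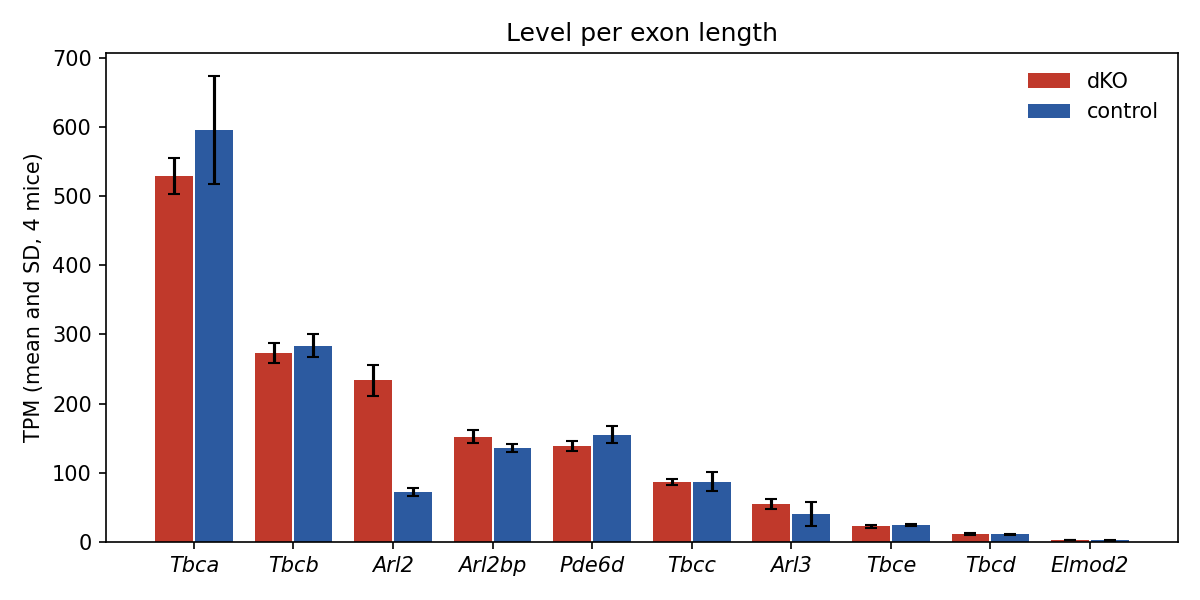
Mean TPM of the 10 genes with SD (n = 4 mice each), ordered by the level in dKO cells, with dKO bars in red on the left and control bars in blue on the right. *Arl2* stands at 233 TPM in dKO and 72.7 TPM in control cells, between *Tbcb* and *Arl2bp* in dKO cells.

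The RNA of *Arl2* therefore stood in another proportion to that of its partners. It made up 15.5 ± 1.13% of the summed TPM of the 10 genes in dKO and 5.17 ± 0.505% in control cells (SD, n = 4 mice each). The TPM ratio of *Arl2* to *Tbcd* was 20.8 ± 1.71 in dKO and 6.57 ± 0.636 in control cells. To *Tbce* it was 10.5 ± 0.316 in dKO and 3.01 ± 0.409 in control cells. TPM uses the exon length of the whole gene and not of the isoforms expressed, so these ratios are not numbers of transcripts. The ratio to *Arl2bp* was 1.54 ± 0.221 in dKO and 0.536 ± 0.0344 in control cells, and that to *Pde6d* was 1.69 ± 0.103 in dKO and 0.471 ± 0.0536 in control cells. In these 4 ratios every dKO library lay above every control library. The ratio to *Arl3* was 4.36 ± 0.889 in dKO and 2.36 ± 1.74 in control cells, and overlapped through control mouse 3, in which it was 4.95. The 5 cofactors together were at 922 ± 21.9 TPM in dKO and 1001 ± 51.0 TPM in control cells. These ratios restate the levels given above and were not tested.

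Genes around the pathway were read from lists, each with its count past the test over all genes. Over all tested genes 2.65% rose and 1.93% fell. Of 15 tested tubulin genes, 1 rose, 1 fell and 13 did not pass, with a median log2 fold change of 0.16. Before adjustment 5 of the 15 (33.3%) had a p under 0.05 by edgeR, against 20.2% of all tested genes. *Tubb5*, a β-tubulin, was at 583 to 762 CPM in dKO and 446 to 538 CPM in control cells (log2 fold change 0.50, adjusted p = 0.0278 by edgeR). *Tuba1a*, an α-tubulin, was at 53.2 to 78.7 CPM in dKO and 88.3 to 116 CPM in control cells (log2 fold change -0.61, adjusted p = 0.0301). *Tuba1b*, the most abundant of the named tubulins, had a log2 fold change of 0.43 and *Tubb6* of 1.40 (adjusted p = 0.0591 and 0.148). Many tubulin genes are near-identical in their coding sequence, and how shared reads were split among them is not known. The call of *Tubb5* was lost on leaving out control mouse 2 (adjusted p = 0.0666), control mouse 3 (0.0683), or either of dKO mice 2 and 3 (0.0828 and 0.0995), and that of *Tuba1a* on leaving out control mouse 4 (0.0858) or dKO mouse 1 (0.0958), 2 (0.0776) or 4 (0.0589).

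Of 15 genes of the CCT chaperonin and of prefoldin, which fold nascent tubulin and actin upstream of the cofactors, 1 rose and 0 fell by edgeR, 6 had a p under 0.05 before adjustment (20.2% of all tested genes did), and the median log2 fold change was -0.05. DESeq2 called 1 of these genes lower (*Cct4*, adjusted p = 0.0271). *Vbp1*, a prefoldin subunit, was at 359 to 463 CPM in dKO and 244 to 341 CPM in control cells (log2 fold change 0.52, adjusted p = 0.0347 by edgeR). *Pfdn2*, another prefoldin subunit, had a log2 fold change of 0.30 and the chaperonin subunits *Cct4* and *Cct5* of -0.34 and -0.26 (adjusted p = 0.0990, 0.0753 and 0.161). The longest 3′ UTR of *Vbp1* has 1 match of 7 bases to the miR-15/16 seed in 964 bases, and its shortest, of 199 bases, has 0. *Vbp1* kept its call without control mouse 1 or dKO mouse 2 and lost it on leaving out any other mouse (adjusted p up to 0.119).

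Of 7 tested regulators, carriers and cofactor relatives of Arl2 and Arl3, 0 passed the test, and 1 had a p under 0.05 before adjustment, a smaller share than the 20.2% of all tested genes. This was *Tbccd1*, a relative of *Tbcc* (log2 fold change 0.30, adjusted p = 0.176 by edgeR). *Elmod3*, a relative of *Elmod2*, had a log2 fold change of -0.21, *Rp2*, which encodes a GTPase-activating protein for Arl3, of -0.16, and *Unc119*, which encodes a carrier of myristoylated proteins, of -0.09 (adjusted p = 0.328, 0.481 and 0.781). DESeq2 and the other tools also called 0 of the 7.

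Of 23 other tested Arf family GTPases, 1 rose and 1 fell, with a median log2 fold change of 0.06 (over all tested genes, 2.65% rose and 1.93% fell). Before adjustment 4 of the 23 (17.4%) had a p under 0.05 by edgeR, against 20.2% of all tested genes. *Arf6*, which acts in endosome recycling and actin remodelling at the plasma membrane, was at 333 to 389 CPM in dKO and 244 to 267 CPM in control cells. Its log2 fold change of 0.53 (95% interval 0.35 to 0.72, adjusted p = 0.00637 by edgeR) passed in all 17 alternatives. *Arl15* was at 11.8 to 14.4 CPM in dKO and 17.6 to 21.6 CPM in control cells (log2 fold change -0.55, adjusted p = 0.0267), and passed without control mouse 1 or dKO mouse 4 but not without any of the other 6 mice (adjusted p up to 0.0826). *Arl5c* was at 72.3 to 281 CPM in dKO and 362 to 714 CPM in control cells, but varied widely within each group (log2 fold change -1.45, interval -2.39 to -0.52, adjusted p = 0.0806). *Arl11* had a log2 fold change of 0.34 (adjusted p = 0.140). The 3′ UTRs of *Arf6* and *Arl15* hold 0 of the seed matches, and that of *Tuba1a* holds 1 of 7 bases in 197 bases.

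The ADP/ATP carriers and mitochondrial fusion genes, listed because mitochondrial Arl2 has been tied to both, had 0 of 5 tested genes past the test, with 2 at a p under 0.05 before adjustment, against 20.2% of all tested genes. The fusion gene *Mfn2* had a log2 fold change of 0.37 and the carrier *Slc25a4* of -0.25 (adjusted p = 0.0645 and 0.0913 by edgeR), and *Mfn1* and *Opa1* of 0.21 and 0.05 (adjusted p = 0.421 and 0.858). DESeq2 called *Mfn2* and *Slc25a4* (adjusted p = 0.0213 and 0.0398) and 1 further gene of the list. DESeq2 was run without the filter on low counts. It therefore also covered the carrier *Slc25a31*, which that filter left out of the 5 and which had at most 74 counts in a library.

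As tubulin genes vary with cell division, proliferation markers were read beside them. Of 18 markers 6 rose and 0 fell by edgeR, 11 had a p under 0.05 before adjustment (20.2% of all tested genes did), and the median log2 fold change was 0.39. These 6 were *Mcm2* to *Mcm7*, subunits of the replicative helicase, with log2 fold changes from 0.48 (*Mcm6*) to 0.78 (*Mcm4*). The other 12 did not pass, although 16 of the 18 values were above 0. Of these, *Top2a* and *Aurkb* had log2 fold changes of 0.52 and 0.47 (adjusted p = 0.0645 and 0.0669 by edgeR). *Mki67*, *Cdk1* and *Birc5* had 0.24, 0.20 and 0.07 (adjusted p = 0.668, 0.567 and 0.804). *Plk1* and *Ccnb1* had -0.01 and -0.23 (adjusted p = 0.978 and 0.272). *Mcm6* lost its call on leaving out control mouse 2, 3 or 4 (adjusted p = 0.0602, 0.0505 and 0.0633) or either of dKO mice 1 and 3 (0.0796 and 0.0855). The other 5 *Mcm* genes kept theirs on leaving out any single mouse. The part of cell division in the values of *Tubb5*, *Tuba1a* and *Vbp1* was not tested. In sorted cells a shift in the share of cycling cells and a change in RNA per cell cannot be told apart. The levels of *Mcm4* were 161 to 231 CPM in dKO and 107 to 120 CPM in control cells.

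The genes most like *Arl2* were sought among 9328 others with a mean of at least 5 CPM, by the root mean square difference between mean-centred log2 CPM values over the 8 libraries. *Ccnd3*, which encodes cyclin D3, was the closest, at 0.10 on the log2 scale, followed by *Pim1*, a serine/threonine kinase gene (0.20), *Gpr174*, a G protein-coupled receptor gene (0.21), *Rubcnl* (0.22) and *Cox6b2*, a cytochrome c oxidase subunit gene (0.24). *Ccnd3* was at 2851, 2769, 3021 and 2391 CPM in dKO mice 1 to 4, against 899, 852, 779 and 966 CPM in control mice 1 to 4. As with *Arl2*, dKO mouse 4 was the lowest of its group and control mouse 4 the highest. The log2 fold changes of these genes were 1.66, 1.84, 1.47, 1.48 and 1.90 in the order named, all past the test. The measure is dominated by the difference between the groups, so it picks genes with a similar fold change. All 5, as well as *Arl2* and *Vbp1*, are on the list of putative miR-15 targets that the study drew up on these mice, and their direction is not independent of that choice.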

How the data were processed

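RNA of sorted pro-B cells was amplified by the SMART-seq protocol and sequenced, with 1 library per mouse. The authors trimmed reads with Trimmomatic, aligned them with STAR and deposited whole-number counts per gene from featureCounts, without normalization; the sources used here give neither versions nor the strand setting. The processing notes name GRCm39, but 99.7% of 24143 symbol-matched genes lie at their GRCm38 locus, so positions are given as GRCm38. Of 24746 genes 7768 had no count, and 13 names that had been turned into dates were left unchanged.

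Counts were scaled by TMM, filtered with filterByExpr (minimum count 10, minimum total 15; 12714 genes left) and tested for genotype in edgeR 4.0.16 (quasi-likelihood; R 4.3.3). P-values were adjusted over all genes by the Benjamini-Hochberg method, with a threshold of 0.05. Log2 fold changes carry a prior count of 0.125. Standard errors were derived from the log2 fold change and the F statistic of the test, and 95% intervals from these with a t quantile. Both are approximate. CPM use TMM library sizes and TPM the deposited exon lengths. At these depths counting error was at most 6.65% of any value of the 10 genes, and the spread between mice was the limit.

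The members and lists were chosen with earlier results of these data known. Named were all 10 members; in each list the called genes, filled up to 4 with those of smallest p; the 5 genes most like *Arl2* (prior count 2, mean of at least 5 CPM); and genes that overlap a member. Alternatives were other normalizations and filters, DESeq2 1.42.0, limma-voom (limma 3.58.1), the likelihood ratio test of edgeR, the replicate number as a block, *Xist* as a covariate, leaving out each mouse, the shortest 3′ UTR, and CPM in place of TPM. Replicates differed from each other beyond sampling noise, and each mouse was counted once. The labels do not say that mice were separate litters or sorts, so p-values cover the spread between these mice.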

Additional observations from a re-analysis of the deposited data

Results flagged for a closer look

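In groups of 4 mice, the highest or lowest value stood apart from the other 3 in 7 of 82 groups of the named genes by Dixon's criterion, 4 of them among the 20 groups of the 10 genes; chance alone gives about 1 in 20 groups. Among the 10 genes these were *Tbca* in control mouse 1 (260.3 CPM, others 166.9 to 179.8), *Tbcc* in dKO mouse 1 (92.51 CPM, others 106 to 106.4) and in control mouse 4 (122.9 CPM, others 95.53 to 98.13), and *Tbcd* in dKO mouse 1 (31.92 CPM, others 26.88 to 27.63). Among the listed genes they were *Rp2* in dKO mouse 3 (23.33 CPM, others 20.29 to 20.52), *Mcm2* in control mouse 4 (146.6 CPM, others 130.9 to 133.1) and *Mcm6* in control mouse 2 (315.6 CPM, others 352.7 to 356.9). The low *Arl3* value of control mouse 3 did not meet the criterion, because the other 3 controls were themselves spread from 27.1 to 36.9 CPM.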

How the results depend on the processing

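*Arl2* kept its direction and its call in all 17 alternatives, 1.63 to 1.72 on the log2 scale on leaving out single mice, and no other of the 10 genes passed in any of them. Values near 0 changed sign without passing for *Elmod2* (3 alternatives), *Tbcc* (5) and *Tbcd* (3). By CPM, without gene length, *Arl2* ranked 4 of the 10 genes in dKO and 6 in control cells. The numbers of seed matches of 7 or 8 bases in the 10 genes were the same in their shortest 3′ UTRs. Over all genes the numbers higher and lower in dKO cells were 680 and 566 with DESeq2, 519 and 461 with the likelihood ratio test, and 558 and 506 with *Xist* as a covariate. On leaving out single mice they ranged between 142 and 493 higher and between 84 and 398 lower, and library size alone gave 263 and 279. The replicate number as a block gave 94 higher and 54 lower genes. In that fit *Arl2* had a log2 fold change of 1.68 (adjusted p = 0.000938 by edgeR). The lists then had 0 tubulin genes higher and 0 lower, 0 chaperonin and prefoldin genes higher, 0 Arf family GTPases lower and 3 proliferation markers higher. Deviations of same-numbered mice from their group means had correlations of -0.294, 0.0766, -0.263 and -0.0811. *Xist* differed within most of these pairs and each group held 4 mice, so the correlations cannot show whether the numbers pair mice.

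In the lists, 2 tubulin genes were higher with library size alone, the likelihood ratio test, DESeq2, limma-voom or the *Xist* covariate, and 0 to 2 were higher and 0 to 1 lower on leaving out single mice. Of the chaperonin and prefoldin genes 1 was lower with library size alone, the likelihood ratio test or DESeq2, 2 were higher and 2 lower with the *Xist* covariate, and 0 to 1 were higher on leaving out single mice. Of the Arf family GTPases 2 were lower with the likelihood ratio test, 3 with the *Xist* covariate and 0 to 1 on leaving out single mice. Of the mitochondrial genes 1 was higher without the filter or with the *Xist* covariate, 2 were higher and 1 lower with DESeq2, and 0 to 1 were higher on leaving out single mice. The causes of these shifts were not tested. With 4 mice a group, differences within the printed intervals, widest for *Arl3*, could not be told from 0.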
